A study of Mus musculus with 48 samples.

Results

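The comparison described here set the change in RNA levels after loss of CCDC174 against the change after loss of NRDE2 in mouse embryonic stem cells (mESCs), and asked for which genes the 2 changes differed. For each gene the difference of effects was the log2 fold change of *Ccdc174-dTAG* cells against their WT minus the log2 fold change of *Nrde2*-KO cells against their own WT. A value above 0 therefore means a higher level, relative to WT, after CCDC174 loss than after NRDE2 loss, and a value below 0 means the reverse. The genes were those with a mean of at least 0.5 CPM, reads of a gene scaled to library size, over the 8 libraries compared, which were 14436 of 55335 genes.

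The 8 libraries, 2 in each of 4 groups, are among the 28 RNA-seq libraries and 48 samples of the series. All cells were male mESCs of mixed 129 and C57BL/6 background that carry a tamoxifen-inducible Cre recombinase at the *Rosa26* locus, grown with serum, LIF and kinase inhibitors. *Nrde2*-KO cells carried loxP sites around part of *Nrde2* and were kept in 4-hydroxytamoxifen at 100 nM for 4 d. *Ccdc174-dTAG* cells carried CCDC174 fused to an HA-tagged, FKBP-derived degron and received dTAG-13 at 500 nM for 24 h, which removes the protein and leaves the gene in place. WT denotes untreated cells of the same edited line. The lines were grown from picked clones, the degron tag itself had small effects on expression according to the study, and no WT group received either compound. Loss of the protein, the compound, the duration of treatment and the line therefore cannot be told apart in the difference of effects. Nothing in the labels says whether the 2 libraries of a group came from separate cultures, so the p-values measure the spread between these libraries, which may be technical.

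NRDE2 is a nuclear protein that binds the RNA helicase MTREX, a cofactor of the nuclear exosome, and is found with splicing factors. CCDC174 is a less studied nuclear protein that is linked to the exon junction complex. The 5′ splice site is the start of an intron, which the U1 small nuclear RNA recognises by base pairing. Several gene programs of mESCs recur below. The 2C-like state is a rare state in which genes of the 2-cell embryo such as the *Zscan4* cluster are transcribed. The integrated stress response slows translation and raises the transcription factor ATF4, which activates genes of amino acid supply and stress. Cholesterol synthesis genes are activated together by SREBP transcription factors when sterols are low.

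The libraries held between 28683644 and 34070425 reads in genes, so that 0.5 CPM rested on between 16.5 and 19.2 reads. Levels are given as normalized CPM, the deposited CPM divided by a scaling factor per library. Log2 changes were taken after adding 0.25, which understates changes of genes at low levels. The 2 libraries of each group correlated at between 0.993 and 0.996 over genes. *Nrde2* RNA was at 51.4 and 50.2 normalized CPM in *Nrde2* WT and at 19.1 and 18.8 in *Nrde2*-KO, and between 51.3 and 54.3 in the 4 libraries of the CCDC174 line. The degron acts on the protein, so *Ccdc174* RNA cannot check its loss, and it stood between 27.4 and 36.8 in all 8 libraries. All 9 ES cell markers examined were expressed, with summed levels between 4075 and 4843 CPM as deposited, while those of fibroblasts summed to between 4.93 and 12.5 CPM as deposited. Markers of other cell types were not absent. Those of primitive endoderm summed to between 596 and 825 CPM as deposited. Those of trophectoderm and simple epithelium summed to between 258 and 455, and those of neural progenitors to between 85.3 and 127. The WT groups of the 2 lines also differed from each other, with 570 of 14436 genes (3.95%) called by the same thresholds.

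A difference was called when its Benjamini-Hochberg adjusted p in limma was below 0.01 and its log2 value was above 1 or below -1. The 2 losses differed in this sense for 103 of 14436 genes (0.713%), of which 26 (0.180%) were higher after CCDC174 loss and 77 (0.533%) lower. By the same thresholds, *Nrde2*-KO raised 337 genes (2.33%) and lowered 370 (2.56%), and *Ccdc174-dTAG* raised 34 (0.236%) and lowered 176 (1.22%). These were 210 genes in all, and 122 without *Ccdc174-dTAG* replicate 2. Both effects were called for 117 genes, 110 of them down in both and 7 up in both, and none of these 117 genes had a called difference or effects of opposite sign. Just inside the thresholds lay *Myh13* at -1.0 and *Sars* at 1.01, and just outside *Syne2* at -1.0 and *Nt5dc2* at 0.98, while *Gm21037* and *Ubtfl1* passed with an adjusted p of 0.00986 where *Ephx1* at 0.0102 and *Frk* at 0.0103 did not. The count depended on single libraries. It was 26 without *Ccdc174* WT replicate 2, 32 without *Ccdc174-dTAG* replicate 1, 35 without *Nrde2* WT replicate 2, 47 and 51 without *Nrde2*-KO replicates 2 and 1, 60 without *Ccdc174* WT replicate 1 and 66 without *Nrde2* WT replicate 1. With the replicate number as a block in the fit it was 252, and the pairing of the numbers is not stated in the labels.

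**Figure D1:**
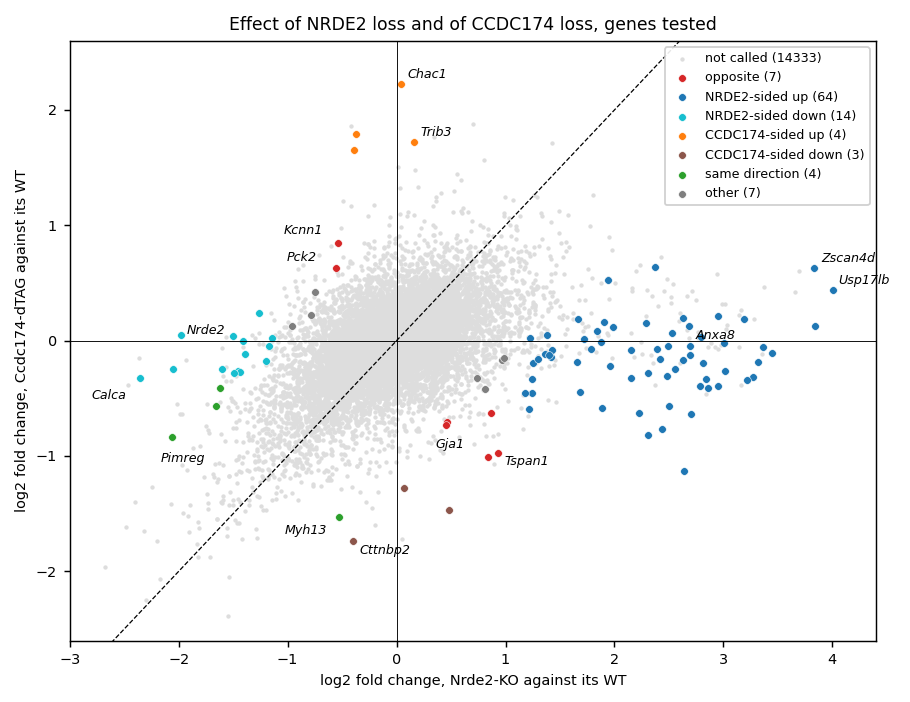
Log2 fold change of *Nrde2*-KO (x axis) and of *Ccdc174-dTAG* (y axis), each against its own WT, for the 14436 genes tested, 1 point per gene, with the 103 genes whose difference was called coloured by class and the dashed line where both effects are equal. Most called genes lie to the right near the horizontal axis, 64 NRDE2-sided genes that were up in *Nrde2*-KO, and 4 lie high above 0 near the vertical axis.

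The 103 genes were sorted by the effects behind the difference. In 7 genes both effects had an adjusted p below 0.05 and opposite signs. In 78 genes the *Nrde2*-KO effect was called and the *Ccdc174-dTAG* effect had an adjusted p of 0.05 or more, and these are called NRDE2-sided. In 7 genes the reverse held, and these are called CCDC174-sided. In 4 genes both effects had an adjusted p below 0.05 and the same sign, and 7 genes met none of these descriptions. With the replicate block the opposite genes were 28, the NRDE2-sided 164 and the CCDC174-sided 15. A p above 0.05 does not show that an effect is absent. The 95% interval of the *Ccdc174-dTAG* effect lay within -1 and 1 for 53 of the 78 NRDE2-sided genes, and that of the *Nrde2*-KO effect for 6 of the 7 CCDC174-sided genes. With 1 library left out, the opposite genes numbered between 3, without *Ccdc174* WT replicate 2, and 11, without *Ccdc174-dTAG* replicate 2, and 4 without replicate 2 of *Nrde2* WT or of *Nrde2*-KO. NRDE2-sided genes numbered 17 and 49 without *Ccdc174* WT replicates 2 and 1, 20 without *Ccdc174-dTAG* replicate 1, 24 and 50 without *Nrde2* WT replicates 2 and 1, and 30 and 36 without *Nrde2*-KO replicates 1 and 2. CCDC174-sided genes numbered 1 without *Ccdc174-dTAG* replicate 1, 2 without *Ccdc174* WT replicate 2, 4 without *Ccdc174-dTAG* replicate 2 and 3 without each of the others.

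Opposite effects were found for 7 genes in limma, a count that was 34 with the other *Nrde2*-KO experiment described below in place of this one, 28 with the replicate block and 14 with DESeq2. *Tspan1*, *Akr1cl*, *Fam198b*, *Gja1* and *Lrp2* rose in *Nrde2*-KO and fell in *Ccdc174-dTAG*, and *Pck2* and *Kcnn1* did the reverse. In none of the 7 were both effects beyond a log2 change of 1. *Fam198b* (ENSMUSG00000027955, chr3:79884533-79946280) was at 27.5 and 27.3 normalized CPM in *Ccdc174* WT and at 17.3 and 18 in *Ccdc174-dTAG*, against 16.0 and 15.3 in *Nrde2* WT and 25.8 and 31.8 in *Nrde2*-KO. In each line the treated libraries lay clear of their WT, on opposite sides. The *Fam198b* effects were -0.63 ± 0.11 (SE) in *Ccdc174-dTAG* and 0.86 ± 0.11 in *Nrde2*-KO, with a difference of -1.49 ± 0.16 and an adjusted p of 0.00015. *Tspan1*, a tetraspanin of the cell surface, was at 6.14 and 7.24 in *Ccdc174* WT, 3.06 and 3.47 in *Ccdc174-dTAG*, 4.02 and 2.90 in *Nrde2* WT and 6.94 and 6.57 in *Nrde2*-KO. Its level fell by 0.98 on the log2 scale after CCDC174 loss and rose by 0.93 after NRDE2 loss, again without overlap within either line, and the difference was -1.91 ± 0.33.

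*Gja1* (ENSMUSG00000050953, chr10:56377330-56402513) encodes a connexin of gap junctions. It went from 102 and 98.3 to 55.4 and 64.9 normalized CPM with CCDC174 loss, and from 47.5 and 59.6 to 64.6 and 82.3 with NRDE2 loss. The *Gja1* difference was -1.19 ± 0.18. *Lrp2*, the endocytic receptor megalin, went from 76.6 and 83.6 to 47.5 and 50.4, and from 26.9 and 31.9 to 41.1 and 39.8. Its difference was -1.17 ± 0.16. *Akr1cl*, a member of the aldo-keto reductase family, went from 7.26 and 6.94 to 3.28 and 3.53, and from 0.984 and 0.869 to 2.09 and 1.64. The difference for *Akr1cl* was -1.85 ± 0.29. In all 5 genes that fell after CCDC174 loss the WT level was higher in the CCDC174 line than in the NRDE2 line. That gap was 2.65 on the log2 scale for *Akr1cl* and 1.44 for *Lrp2*, both called, and 0.91 for *Gja1*, 0.92 for *Tspan1* and 0.80 for *Fam198b*, and its part in the result was not tested.

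*Pck2* (ENSMUSG00000040618, chr14:55540266-55551242) encodes the mitochondrial phosphoenolpyruvate carboxykinase and is a known target of ATF4. It was at 69.4 and 86.4 normalized CPM in *Ccdc174* WT, 125 and 114 in *Ccdc174-dTAG*, 86.0 and 80.6 in *Nrde2* WT and 60.8 and 52.6 in *Nrde2*-KO. The WT libraries of the 2 lines overlapped, and the treated libraries lay above them in one line and below in the other. Its effects were 0.63 and -0.56, with a difference of 1.18 ± 0.15 and an adjusted p of 0.00067. *Kcnn1*, a calcium-activated potassium channel subunit, went from 3.78 and 3.08 to 7.20 and 5.58 with CCDC174 loss and from 4.89 and 5.07 to 3.59 and 3.13 with NRDE2 loss. The difference for *Kcnn1* was 1.39 ± 0.21.

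The same comparison was available in 8 other libraries, in which cells of the same 4 kinds had been treated with cycloheximide (CHX), an inhibitor of translation, at 0.1 mg/ml for 4 h. *Nrde2* RNA cannot check the labels of these libraries. It was at 273 and 252 normalized CPM in *Nrde2* WT and at 285 and 273 in the libraries labelled *Nrde2*-KO, and between 231 and 276 in the CCDC174 line, so it was not lower in *Nrde2*-KO. Other genes separated those libraries as without CHX. *Zscan4d*, for example, was at 24.3 and 20.8 in the libraries labelled *Nrde2*-KO and between 0.623 and 1.98 in the other 6, and *Pimreg* was at 5.58 and 6.57 against between 19.2 and 35.6. In Ribo-seq, *Nrde2* was at 12.3 and 14.3 in WT and 2.34 and 3.25 in *Nrde2*-KO. Of 15476 genes tested with CHX, 249 had a called difference (1.61%). Of the 7 genes with opposite effects, 6 were called with CHX in the same direction, at -1.52 for *Fam198b*, -1.48 for *Tspan1*, -1.39 for *Akr1cl*, -1.19 for *Gja1*, -1.05 for *Lrp2* and 1.23 for *Pck2*. *Kcnn1* was at 0.84 with an adjusted p of 0.017. With CHX the opposite signs of both effects were seen again in all 7 genes, although not every single effect passed a test. *Pck2* with CHX was at 80.1 and 101 in *Ccdc174* WT, 139 and 151 in *Ccdc174-dTAG*, 106 and 98.9 in *Nrde2* WT and 71.0 and 69.3 in the libraries labelled *Nrde2*-KO. *Fam198b* was at 30.4 and 28.1, 18.8 and 18, 21 and 19.4, and 37.6 and 36.1 in the same order. In another *Nrde2*-KO experiment with its own WT libraries the sign of the *Nrde2*-KO effect was the same for all 7, and none was called there. That sign was the same for 11567 of all 14436 genes, so the 7 say little by their sign. In Ribo-seq the sign was the same for 3 of the 7, against 8593 of 12717 genes, and none of the 7 was called. Knockout of *Mtrex*, which called 1971 genes up (13.7%), gave a called increase for 4 of the 5 genes that rose in *Nrde2*-KO, from 1.61 for *Akr1cl* to 3.76 for *Lrp2*, whereas *Tspan1* was at 0.14. *Pck2* was at -3.34 and *Kcnn1* at -2.42 in *Mtrex*-KO.

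**Figure D2:**
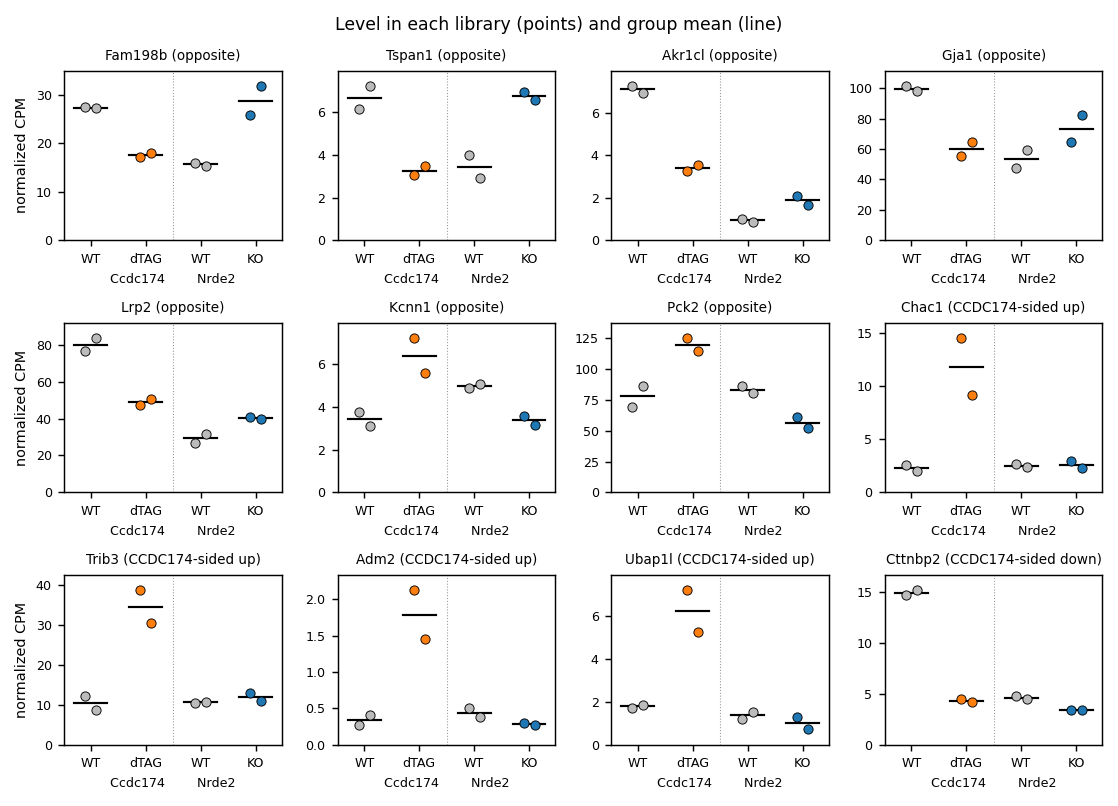
Normalized CPM (y axis, from 0) in each of the 8 libraries (points) with group means (lines) for the 7 genes with opposite effects, the 4 genes up on the CCDC174 side and *Cttnbp2*. *Fam198b* falls to 17.3 and 18 in *Ccdc174-dTAG* and rises to 25.8 and 31.8 in *Nrde2*-KO, and *Chac1* is high in the 2 *Ccdc174-dTAG* libraries, at 14.5 and 9.10.

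CCDC174 loss raised 4 genes whose change after NRDE2 loss did not pass, and 3 of them belong to the integrated stress response. *Chac1* (ENSMUSG00000027313, chr2:119351229-119354381), an enzyme that degrades glutathione, was at 2.58 and 1.98 normalized CPM in *Ccdc174* WT and at 14.5 and 9.10 in *Ccdc174-dTAG*, with 2.67 and 2.35 in *Nrde2* WT and 2.90 and 2.31 in *Nrde2*-KO. Only the *Ccdc174-dTAG* libraries stood apart, and the *Nrde2*-KO libraries lay in the range of the WT of both lines or close to it. The *Chac1* effect was 2.22 ± 0.25 after CCDC174 loss and 0.04 after NRDE2 loss, with a 95% interval from -0.47 to 0.56, and the difference was 2.18 ± 0.35 with an adjusted p of 0.0022. *Trib3* (ENSMUSG00000032715, chr2:152337422-152344032), a pseudokinase that restrains ATF4, was at 12 and 8.61 in *Ccdc174* WT, 38.6 and 30.4 in *Ccdc174-dTAG*, 10.4 and 10.7 in *Nrde2* WT and 12.8 and 10.9 in *Nrde2*-KO. The increase of *Trib3* was 3.31-fold with CCDC174 loss, and with NRDE2 loss the log2 change was 0.16, with a 95% interval from -0.16 to 0.47. *Adm2*, a peptide hormone of the calcitonin family, was at 0.266 and 0.402 in *Ccdc174* WT, 2.12 and 1.45 in *Ccdc174-dTAG*, 0.506 and 0.376 in *Nrde2* WT and 0.299 and 0.265 in *Nrde2*-KO. It rested on 10 and 15 reads in *Ccdc174* WT, with 79 and 55 in *Ccdc174-dTAG*, and without the *Ccdc174-dTAG* libraries its mean CPM was below 0.5.

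*Ubap1l* (chr9:65361041-65380377), a relative of an ESCRT subunit that binds ubiquitin, was the other gene of the class. Its levels were 1.70 and 1.85 in *Ccdc174* WT, 7.17 and 5.24 in *Ccdc174-dTAG*, 1.18 and 1.53 in *Nrde2* WT and 1.29 and 0.716 in *Nrde2*-KO. The *Ubap1l* difference was 2.05 ± 0.31. In the other *Nrde2*-KO experiment none of the 4 genes was called, but *Ubap1l* was at -0.93 with an adjusted p of 0.0038 and *Chac1* at -0.87 with an adjusted p of 0.012, against -0.29 for *Trib3* and -0.35 for *Adm2*. In Ribo-seq of *Nrde2*-KO, *Chac1* was called down at -1.06 with an adjusted p of 0.0093, while *Trib3* at -0.50, *Ubap1l* at -1.31 and *Adm2* at 1.25 did not pass. The NRDE2 effect on *Chac1* near 0 was therefore not seen in each experiment. All 4 genes were called with CHX too, at 1.12 for *Chac1*, 1.14 for *Trib3*, 1.41 for *Adm2* and 1.42 for *Ubap1l*. There the *Ccdc174-dTAG* effects were smaller, between 0.52 for *Chac1* and 0.95 for *Adm2*, and the *Nrde2*-KO values lay below 0, at -0.60 for *Chac1*, -0.32 for *Trib3*, -0.46 for *Adm2* and -0.84 for *Ubap1l*. *Chac1* with CHX was at 9.37 and 8.89 in *Ccdc174* WT, 13.8 and 12.6 in *Ccdc174-dTAG*, 6.2 and 6.77 in *Nrde2* WT and 3.86 and 4.54 in the libraries labelled *Nrde2*-KO, and the last group was the lowest. Leaving out a library kept the sign of each. *Trib3* stayed called in 8 of 8 such fits, *Ubap1l* in 6, *Chac1* in 4 and *Adm2* in 1, with the highest adjusted p at 0.0187 for *Chac1* without *Ccdc174* WT replicate 2 and at 0.0189 for *Adm2* without *Ccdc174-dTAG* replicate 1.

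ATF4 and its C/EBP partners bind the C/EBP-ATF response element, searched here as TGATGNAA on both strands of RefSeq promoters (GRCm38.p6, 250 bases before to 50 after the gene start). It occurred in 1219 of 27025 promoters (4.51%) and in 273 of the 10405 promoters matched to tested genes (2.62%). *Chac1* and *Trib3* of the genes up on the CCDC174 side held a match, as did *Pck2* of those with opposite effects. In the list of stress response genes 10 of the 32 with a promoter held it (31.2%), among them *Asns* and *Atf3*, whose difference of effects was not called, so the match does not mark genes with a called difference. The windows of these 3 genes and of *Nupr1*, another stress response gene, are printed 5′ to 3′ on the strand of the gene, with the match in capitals, here always the reverse complement of the searched letters:
*Chac1*, chr2:119351038-119351067, plus strand: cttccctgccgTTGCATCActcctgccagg
*Trib3*, chr2:152344028-152344057, minus strand: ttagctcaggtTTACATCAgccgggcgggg
*Pck2*, chr14:55540152-55540181, plus strand: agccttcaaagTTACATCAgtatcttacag
*Nupr1*, chr7:126625562-126625591, minus strand: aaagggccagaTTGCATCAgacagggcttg
The match began at -193 relative to the RefSeq gene start in *Chac1*, at -103 in *Pck2* and at -110 in *Nupr1*, and 15 bases after that start in *Trib3*. The spans printed above are from GENCODE and have another start for *Chac1* and *Trib3*. The *Trib3* match lies upstream of its printed span. *Chac1* and *Nupr1* shared 1 form of the element and *Trib3* and *Pck2* the other. A match of letters is a description of the sequence and no evidence of binding, and *Adm2* and *Ubap1l* have none in this window.

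A list of 38 stress response genes, of which 37 passed the filter, was examined as a whole. The difference was called for 4 of them, *Chac1*, *Adm2*, *Trib3* and *Sars*, all higher after CCDC174 loss, against 0.180% of all genes tested. *Adm2* passed the filter through the *Ccdc174-dTAG* libraries alone, so it had to be high there. It is part of the counts of this list and gives them no support. The median difference was 0.61, against 0.03 over all genes tested, and it was above 0 in 37 of 37, against 7774 of 14436 genes. CCDC174 loss raised 7 genes by the thresholds, against 0.236% of all genes, and NRDE2 loss none, against 2.33%. NRDE2 loss lowered 1 of 37, which is near the share of 2.56% over all genes. The median effects were 0.37 after CCDC174 loss and -0.22 after NRDE2 loss, against 0.02 and -0.01 over all genes. In bulk RNA, fewer cells in a given state and less RNA per cell cannot be told apart. Counted with 1 library left out, between 1 and 3 genes of the list had a called difference, 1 of them without *Nrde2* WT replicate 1 or *Nrde2*-KO replicate 2 and 2 without either *Ccdc174* WT library or *Ccdc174-dTAG* replicate 1. The count was 7 with the replicate block and 11 with the other *Nrde2*-KO experiment.

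Several genes of the list rose in *Ccdc174-dTAG*. *Ddit3*, the pro-apoptotic factor CHOP, was at 3.27 and 1.96 normalized CPM in *Ccdc174* WT, 10.9 and 7.76 in *Ccdc174-dTAG*, 2.53 and 3.30 in *Nrde2* WT and 4.52 and 3.10 in *Nrde2*-KO. It rose in *Ccdc174-dTAG* by 1.76 on the log2 scale, and the difference of 1.41 ± 0.37 had an adjusted p of 0.041. *Nupr1*, a small chromatin-associated stress protein, rose in *Ccdc174-dTAG* by 1.88 from 13.7 and 11.7 to 52.5 and 42.6, was at 0.70 in *Nrde2*-KO, and differed by 1.18 with an adjusted p of 0.014. *Vldlr* and *Cebpb* were the other genes called up in *Ccdc174-dTAG*. *Atf4* RNA itself rose after both losses by less than the limit of 1, by 0.85 and 0.46, with a difference of 0.39 and an adjusted p of 0.25. Other genes of the list had lower levels after NRDE2 loss. *Sars*, the seryl-tRNA synthetase, was at 243 and 229 in *Nrde2* WT and 138 and 135 in *Nrde2*-KO, against 236 and 257 in *Ccdc174* WT, with 280 and 295 in *Ccdc174-dTAG*. Its difference was 1.01 ± 0.11 with an adjusted p of 0.00015. *Aldh18a1*, which makes the precursor of proline, fell from 90.3 and 88.8 to 43.4 and 43.8 in *Nrde2*-KO and was at 101 and 105 and then 100 and 95.8 in the CCDC174 line, and its difference of 0.97 lay just below the threshold of 1. *Psat1*, an enzyme of serine synthesis, differed by 0.84 with an adjusted p of 0.0031. With CHX 5 genes of the list were called higher and 1, *Atf3*, lower at -1.43.

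CCDC174 loss lowered 3 genes whose change after NRDE2 loss did not pass. *Cttnbp2* (chr6:18366478-18514843), a cortactin-binding protein of neurons, went from 14.8 and 15.2 normalized CPM to 4.46 and 4.21 with CCDC174 loss and from 4.75 and 4.49 to 3.44 and 3.45 with NRDE2 loss. The *Cttnbp2* difference was -1.34 ± 0.22. The *Ccdc174* WT libraries alone stood high, and WT levels of *Cttnbp2* differed by 1.65 between the lines. *Gbp4*, an interferon-inducible GTPase, went from 0.877 and 0.885 to 0.161 and 0.158, and from 0.309 and 0.434 to 0.449 and 0.822, and rested on 6 reads in each *Ccdc174-dTAG* library. None of the 3 was called with CHX, where the difference was -1.07 for *Cttnbp2* and -1.06 for *Gbp4*, and *Cttnbp2* was called in none of the fits with 1 library left out.

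NRDE2 loss raised 64 genes whose change after CCDC174 loss did not pass, and this class held more genes than any other. The median effect in *Nrde2*-KO was 2.40 and in *Ccdc174-dTAG* -0.14. The 95% interval of the CCDC174 effect lay within -1 and 1 for 39 of the 64, and for the other 25 the interval reached past a change of 2-fold. Many were genes at low level. The highest group was below 10 normalized CPM for 51 of 64 (79.7%), against 36.8% of all genes tested, and 23 reached the filter through the *Nrde2*-KO libraries alone, with a mean below 0.5 CPM in the other 6, so they had to be high there. The counts that follow include these 23 genes, were not made without them, and describe the class as filtered. In the other *Nrde2*-KO experiment, 60 of the 64 were called up, where 401 of all genes were (2.78%). With CHX, 43 of the 56 genes that could be tested had a called difference in the same direction, where 175 of 14036 genes were called lower. Ribo-seq, which counts fragments protected by ribosomes, was done for *Nrde2*-KO and WT only. Of 13857 genes, 502 (3.62%) were called up and 388 (2.80%) down there, and among the 34 genes of the class measured 12 were called up and none down. *Mtrex*-KO raised 55 of the 64, where 1971 of 14436 genes were raised (13.7%).

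Genes of the 2C list made up 12 of the 64, where 26 of all 14436 genes tested were on that list. Of these 26, 15 had a mean below 0.5 CPM without the *Nrde2*-KO libraries, so they had to be high there. The count of 12 therefore describes the class and gives no support to its direction. *Zscan4d* (chr7:11161374-11166159) was at 1.04 and 1.26 normalized CPM in *Ccdc174* WT, 1.32 and 2.74 in *Ccdc174-dTAG*, 1.77 and 1.74 in *Nrde2* WT and 27.1 and 29.6 in *Nrde2*-KO. *Usp17lb* (chr7:104840257-104842603), of a family of deubiquitinating enzymes, was at 0.372 and 0.831, 0.537 and 1.32, 1.18 and 1.07, and 24.0 and 19.9 in the same order. In both, the *Nrde2*-KO libraries were far above the other 6, which overlapped. The difference was -3.20 ± 0.60 for *Zscan4d* and -3.57 ± 0.68 for *Usp17lb*. *Zscan4f* was at 0.399 and 0.992, 0.296 and 1.03, 0.590 and 0.579, and 9.54 and 8.19. *Gm8300* was at 0.665 and 1.26, 0.618 and 1.66, 1.26 and 1.36, and 21.7 and 22.6. *Gm13119* was at 0.638 and 1.5, 0.403 and 1.29, 0.956 and 0.290, and 8.10 and 7.03. In each, replicate 2 of both CCDC174 groups was above replicate 1, and only *Nrde2*-KO stood apart. *Arg2*, a mitochondrial arginase, was at 0.319 and 0.643, 0.107 and 0.631, 0.506 and 0.695, and 9.03 and 6.36, with a difference of -3.56 ± 0.53 and an adjusted p of 0.0014. *Pramel6* was the exception in level, at 79.4 and 106 in *Ccdc174* WT, with 91.0 and 120 in *Ccdc174-dTAG*, above the 43.2 and 43.2 of *Nrde2*-KO, which itself rose from 13.9 and 12.9.

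Of 40 genes on the 2C list, 26 passed the filter and 14 did not, among them *Duxf3* and 5 *Tdpoz* genes. Of the 26, 15 passed through the *Nrde2*-KO libraries alone, so they had to be high there, and the counts that follow describe the list without supporting its direction. The difference was called for 12, all lower after CCDC174 loss, against 0.533% of all genes tested, with a median of -2.92. NRDE2 loss raised 25 of the 26 by the thresholds, against 2.33% of all genes tested. CCDC174 loss raised none, which is near the share of 0.236% over all genes tested. The median effects were 3.01 after NRDE2 loss and 0.03 after CCDC174 loss. Against the mean of both *Ccdc174* WT libraries, the median change was -0.39 in *Ccdc174-dTAG* replicate 1 and 0.47 in replicate 2. Summed over the list the level was 129 and 187 in *Ccdc174* WT, 138 and 203 in *Ccdc174-dTAG*, 44.3 and 38.7 in *Nrde2* WT and 281 and 256 in *Nrde2*-KO, sums in which *Pramel6* and *Pramel7* weigh most in the first 4 libraries. Replicate 2 was the higher one in both groups of the CCDC174 line, and a fit with the replicate block called 24 of the 26 differences. With CHX 16 of 20 were called lower, against 175 of 14036 genes. The count of 12 fell to 1 without *Ccdc174* WT replicate 2, to 2 without *Ccdc174-dTAG* replicate 1, to 3 without *Nrde2* WT replicate 2, to 4 without either *Nrde2*-KO library, to 5 without *Nrde2* WT replicate 1 and to 6 without *Ccdc174* WT replicate 1, and it was 1 with the other *Nrde2*-KO experiment and 4 with edgeR. *Zscan4*, *Usp17l* and *Gm8300* genes have near-identical copies, and since uniquely mapping reads were counted, the levels of single copies are uncertain. The 4 *Zscan4* genes of the class lie within chr7:11065139-11519111 and are no independent observations.

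**Figure D3:**
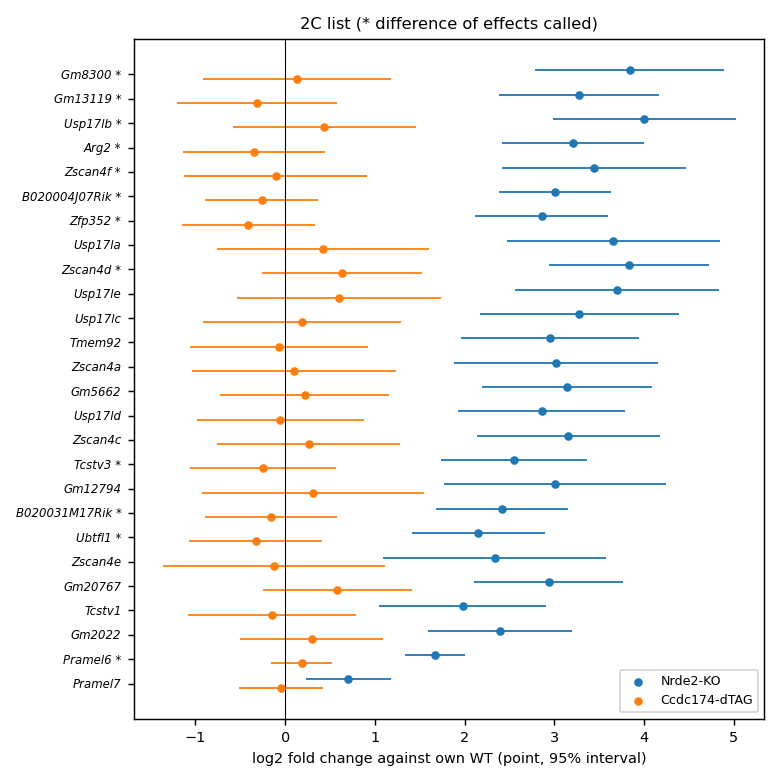
Log2 fold change with 95% interval (x axis) of *Nrde2*-KO (blue) and *Ccdc174-dTAG* (orange) against their own WT for the 26 genes of the 2C list that were tested, with an asterisk where the difference of effects was called. The *Nrde2*-KO intervals lie above 0 and the *Ccdc174-dTAG* intervals all cross 0.

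Genes outside the 2C list in the same class were of many kinds. *Anxa8* (chr14:34085981-34100571), an annexin and a gene of the YAP target list, was at 7.79 and 7.78 normalized CPM in *Ccdc174* WT, 7.74 and 7.31 in *Ccdc174-dTAG*, 4.53 and 2.75 in *Nrde2* WT and 31.7 and 18.5 in *Nrde2*-KO. Its difference of -2.74 ± 0.30 had an adjusted p of 0.00015, it was -3.10 with CHX, and the Ribo-seq effect of *Nrde2*-KO was 2.67. *Serpine2*, an inhibitor of serine proteases, was at 3.48 and 3.49, 2.71 and 3.21, 1.60 and 2.00, and 9.06 and 6.52 in the same order, with a Ribo-seq effect of 2.03. *Sdc4*, the heparan sulfate proteoglycan syndecan 4, was at 88.5 and 94.8, 71.9 and 88.9, 74.5 and 56.8, and 161 and 150. In these 3 genes both *Nrde2*-KO libraries exceeded the other 6, and the *Ccdc174-dTAG* effects were -0.05, -0.22 and -0.19. *Pik3r3*, a regulatory subunit of phosphoinositide 3-kinase, rose in *Nrde2*-KO from 31.5 and 21.9 to 67.4 and 62.2, with a difference of -1.46 ± 0.22. *Cd4*, the T cell co-receptor, rose in *Nrde2*-KO from 2.16 and 1.42 to 9.60 and 10.7 and was at 0.771 and 0.724 and then 1.40 and 1.21 in the CCDC174 line. *Dab2*, an endocytic adaptor and the only called gene of the primitive endoderm list, rose in *Nrde2*-KO from 1.57 and 1.48 to 4.28 and 4.72. WT levels differed between the lines by the thresholds for 10 of the 64 genes, *Anxa8* (1.09), *Cd4* (-1.01) and *Pramel6* (2.75) among them. The same held for 18 of all 103 called genes, against 570 of 14436 genes tested (3.95%). The part of these WT differences in the calls was not tested.

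NRDE2 loss lowered 14 genes whose change after CCDC174 loss did not pass, and for all 14 the 95% interval of the CCDC174 effect lay within -1 and 1. The targeted gene *Nrde2* was one of them, with a difference of 1.40 ± 0.13 that was 0.08 with CHX. *Mid1ip1* (chrX:10715013-10719690), which promotes fatty acid synthesis, was at 3.32 and 2.23 normalized CPM in *Ccdc174* WT, 3.39 and 2.37 in *Ccdc174-dTAG*, 8.10 and 9.82 in *Nrde2* WT and 1.88 and 2.28 in *Nrde2*-KO. *Scd1*, the stearoyl-CoA desaturase, was at 138 and 122, 107 and 107, 196 and 169, and 60.1 and 68.9 in the same order. *Calca*, the gene of calcitonin, was at 2.55 and 2.14, 2.10 and 1.58, 3.60 and 5.44, and 0.598 and 0.742. The differences were 2.03 ± 0.26, 1.22 ± 0.17 and 2.03 ± 0.32. WT levels of *Mid1ip1* differed by -1.62 between the lines, and its levels in the CCDC174 line were close to those of *Nrde2*-KO. *Rnf157*, a ubiquitin ligase, had like levels in the 3 groups with NRDE2, between 6.78 and 7.68, and 2.15 and 2.65 in *Nrde2*-KO. *Prph*, an intermediate filament protein, fell in *Nrde2*-KO from 3.71 and 4.37 to 1.08 and 0.557, and *Mapk8ip2*, a scaffold of the JNK pathway, from 8.15 and 8.92 to 3.44 and 3.39. *Pnma2* and *Tesc* were lower in *Nrde2*-KO as well, by -1.39 and -1.60, and their WT levels differed between the lines by -2.26 and 1.28. In the other *Nrde2*-KO experiment 12 of the 14 were called down, where 314 of all genes were (2.18%). With CHX, 9 of 14 were called in the same direction, where 51 of 14036 genes were called higher. In Ribo-seq 6 of 14 were called down.

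Most cholesterol synthesis genes fell after NRDE2 loss. All 24 genes of the list were tested. NRDE2 loss lowered 16 by the thresholds, against 2.56% of all genes tested, and CCDC174 loss 1, against 1.22%. The effect lay below 0 in 24 of 24 genes after NRDE2 loss and in 23 of 24 after CCDC174 loss, with medians of -1.16 and -0.42. Nearly all thus moved in the same direction after both losses, by different amounts. The difference was called for 3, *Msmo1*, *Dhcr7* and *Cyp51*, all higher after CCDC174 loss, against 0.180% of all genes tested. It had a median of 0.73 against 0.03 over all genes tested and was above 0 in 24 of 24. *Msmo1*, a sterol oxidase, was at 186 and 174.1 normalized CPM in *Ccdc174* WT, 125 and 146 in *Ccdc174-dTAG*, 219 and 205 in *Nrde2* WT and 61.7 and 76.3 in *Nrde2*-KO. *Cyp51*, the lanosterol demethylase, was at 142 and 150, 93.0 and 104, 158 and 150, and 45.5 and 52.5. In both genes each loss gave levels below its WT without overlap, by more after NRDE2 loss. *Dhcr7*, the last enzyme of the pathway, was at 48.1 and 50.5, 38.1 and 44.3, 48.5 and 40.9, and 16.0 and 16.1. The differences were 1.21 ± 0.18, 1.09 ± 0.17 and 1.19 ± 0.18, and with CHX they were 0.88, 0.84 and 1.01, the last one called. Without *Ccdc174* WT replicate 2 the count of called genes was 1, and without *Ccdc174* WT replicate 1 or *Nrde2*-KO replicate 1 it was 2.

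**Figure D4:**
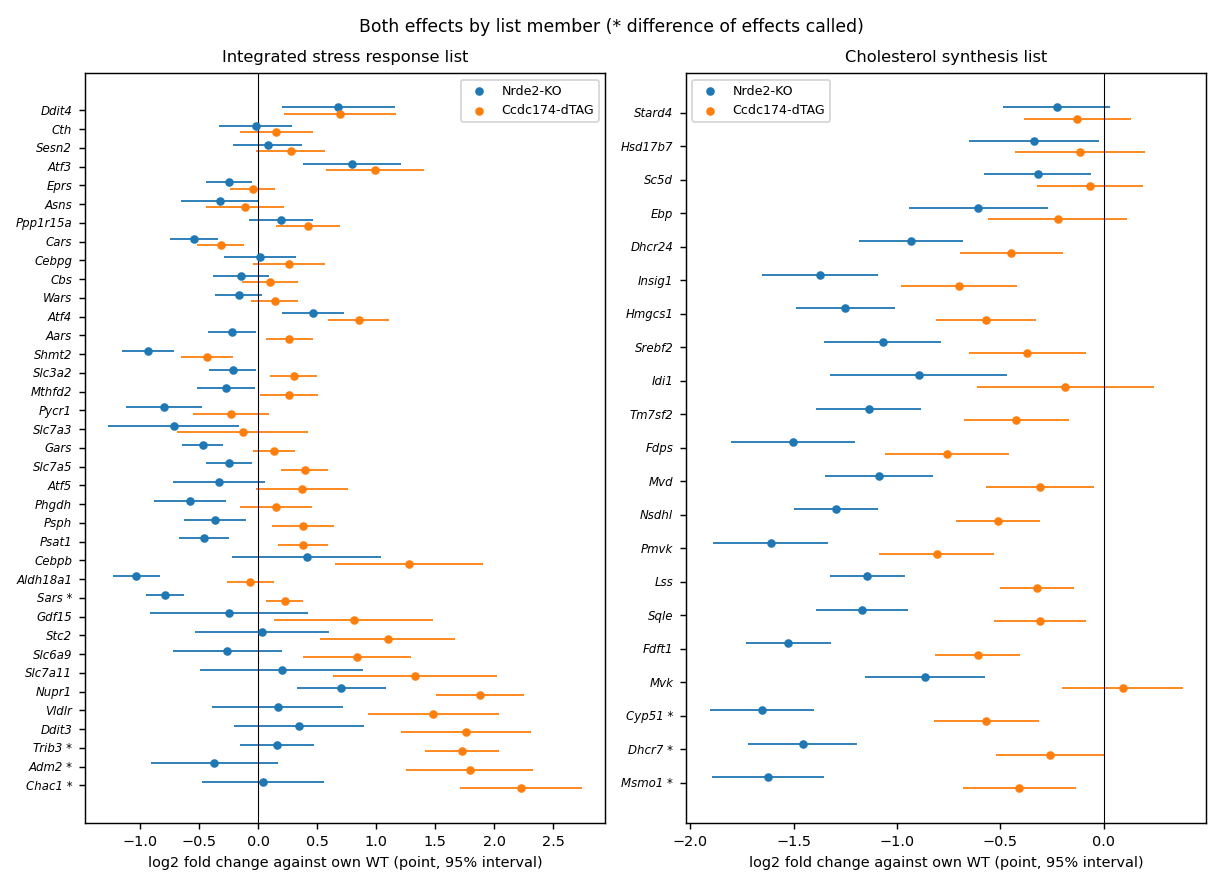
Log2 fold change with 95% interval (x axis) of *Nrde2*-KO (blue) and *Ccdc174-dTAG* (orange) for the 37 stress response genes tested (left) and 21 of the 24 cholesterol synthesis genes tested (right), sorted by the difference of effects, with an asterisk where it was called. The orange point lies to the right of the blue point in every gene drawn.

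*Msmo1* and *Cyp51* belong to the 4 genes that fell after both losses but by different amounts. *Pimreg* (chr11:72042032-72047370), a regulator of mitosis, was at 37.8 and 38.7 in *Ccdc174* WT, 21.4 and 21.2 in *Ccdc174-dTAG*, 26.3 and 25.3 in *Nrde2* WT and 6.01 and 5.96 in *Nrde2*-KO, a difference of 1.23 ± 0.20. *Myh13*, a myosin heavy chain, was the only 1 of the 4 that fell more after CCDC174 loss, from 44.1 and 42.0 to 14.2 and 15.3, against 40.4 and 33.6 to 28.2 and 22.9 after NRDE2 loss. Its difference of -1.0 ± 0.18 lay at the threshold and was -1.19 with CHX.

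For the genes that the study names as splicing targets the difference in RNA level per gene was small. Levels per gene do not measure splicing, which the study examined in these genes by intron reads, splice junctions, RT-PCR and Ribo-seq. *Tti1*, a partner of kinases of the PI3K-related family, fell after both losses, from 61.8 and 68.7 to 25.1 and 27.0 normalized CPM with CCDC174 loss and from 82.7 and 77.2 to 28.5 and 26.5 with NRDE2 loss. *Cdk2*, a kinase of the cell cycle, went from 104 and 111 to 62.4 and 64.7 and from 110 and 122 to 68.0 and 79.3. *Dnmt1*, the maintenance DNA methyltransferase, went from 479 and 471 to 303 and 279 and from 509 and 534 to 315 and 293. The differences and their 95% intervals were 0.22 (-0.07 to 0.51), -0.10 (-0.40 to 0.20) and 0.07 (-0.19 to 0.33), so a difference of 1 in either direction lies outside all 3 intervals. The 5′ splice sites of the introns that the study names in them are shown, 3 exonic and 6 intronic bases of GRCm38 (mm10) with the first 2 intronic bases in capitals:
*Cdk2* intron 1, chr10:128704706-128704714, minus strand: cacGTgagt
*Tti1* intron 5, chr2:157995375-157995383, minus strand: aagGTactg
*Dnmt1* intron 10, chr9:20932109-20932117, minus strand: aagGCaaag
They share 7, 5 and 5 of 9 bases with the U1 consensus. The weakest annotated 5′ splice site of a gene shared a median of 5 bases in the NRDE2-sided genes that were up and in those that were down. It was also 5 in the genes with opposite effects, in the 4 genes up on the CCDC174 side and over all genes tested. The median was 4 in the 3 genes down on the CCDC174 side and 5.5 in the 4 genes with both effects of the same sign. The named introns are single sites and not the weakest of their genes by search, so their values are not on the same measure.

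Over all 103 called genes, 95 could be tested with CHX, the difference had the same sign in all 95, and 65 were called in the same direction. Among all 14036 genes tested both ways, the sign was the same in 10686, and 219 were called in the same direction. The classes differed in how many were called with CHX, from 4 of 4 genes up on the CCDC174 side, 43 of 56 up and 9 of 14 down on the NRDE2 side to 0 of 3 down on the CCDC174 side, and these shares were not tested against each other. The CHX and untreated libraries come from the same lines, so clonal properties are common to both.

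**Figure D5:**
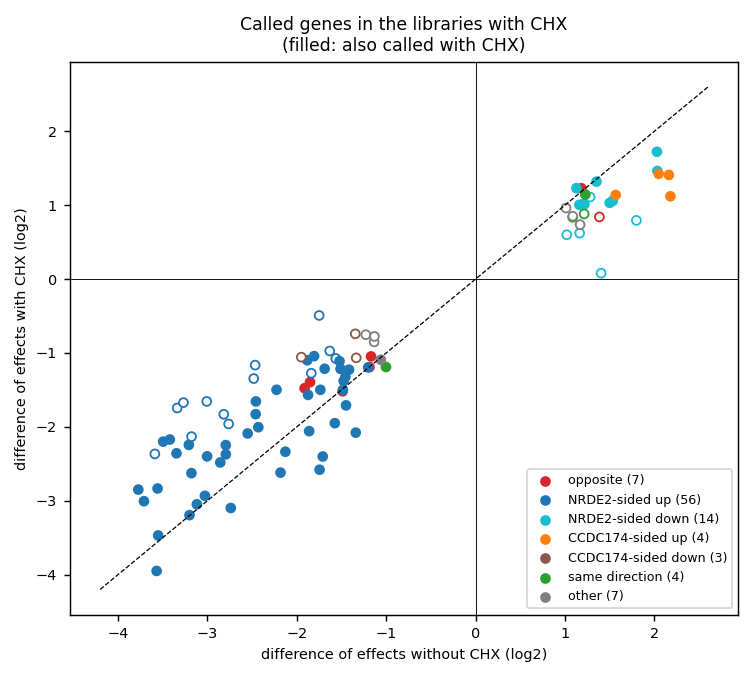
Difference of effects without CHX (x axis) and with CHX (y axis), log2, for the 95 called genes tested in both, coloured by class, filled where also called with CHX, with the dashed line of equality. All points lie in the lower left or upper right quadrant, and 65 are filled.

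Most other lists held no called difference. None of 29 p53 target genes was called in limma, which is near the share of 0.713% over all genes tested. Of the 29, 12 had an unadjusted p below 0.05 in limma, against 2594 of 14436 genes. The median was -0.32, and 26 lay below 0, against 6662 of 14436 genes. With CHX 9 were called lower, against 175 of 14036 genes. Without CHX, 3 were called lower with DESeq2 and 3 with the replicate block, 2 with only the 8 libraries, 4 with the other *Nrde2*-KO experiment and 1 without *Ccdc174-dTAG* replicate 2. The largest in size were *Pmaip1* at -1.21 and *Plk2* at -1.11, with adjusted p of 0.019 and 0.017. None was called in limma among 22 genes of naive pluripotency, 19 of Nodal and Lefty signalling, 22 factors of nonsense-mediated decay and the exon junction complex, 18 of the U1 snRNP and Sm proteins, 25 of hypoxia and glycolysis or 27 cyclins and cyclin-dependent kinases. In the same order, 4, 4, 4, 1, 8 and 8 of them had an unadjusted p below 0.05, against 2594 of 14436 genes, and the median differences were 0.04, 0.12, 0.00, 0.18, 0.35 and 0.03. *Lefty1*, a secreted Nodal antagonist with the largest difference in these lists, was at 45.3 and 85.7 normalized CPM in *Nrde2* WT, 11 and 11.1 in *Nrde2*-KO, and in the CCDC174 line at 14 and 22.5 in WT, then 12 and 15.3 after dTAG-13. Its difference was 2.08 ± 0.44 with an adjusted p of 0.013, and it was called in 6 of 20 alternative fits, which were those with DESeq2, a pseudocount of 1, CPM as deposited, the replicate block, the other *Nrde2*-KO experiment or *Nrde2* WT replicate 1 left out.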

How the data were processed

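Total RNA depleted of ribosomal RNA was sequenced as stranded 50-nt single-end libraries. The authors mapped reads to mm10 with STAR (2.7.3a among the versions in the submitters' processing notes), counted uniquely mapping reads on the correct strand per GENCODE M23 gene with featureCounts, and deposited CPM without scaling between libraries. All values were whole multiples of 1 read (100% within 0.1), so reads were recovered. Here CPM were divided by median-of-ratios factors, 0.25 was added, and limma 3.58.1 (R 4.3.3) with a mean-variance trend was fitted to the 20 untreated libraries (10 groups), which share 1 estimate of spread. The 8 CHX and 4 Ribo-seq libraries had fits of their own. Calls required an adjusted p below 0.01 and a log2 change beyond 1, the thresholds of the study. edgeR 4.0.16 and DESeq2 1.42.0 on the recovered reads were alternatives, with other pseudocounts, filters, scalings, samples and class rules. Deviations of same-numbered libraries from their group means correlated at 0.377 (CCDC174 line) and 0.119 (NRDE2 line), and at 0.369 and 0.217 with CHX. All 4 were above 0.1, so a fit with the replicate number as a block is given beside the counts it moved. Fits were tested on simulated data. Genes were placed with GENCODE M21 on GRCm38, which held 55154 of 55335 identifiers.

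The genes described, the gene lists and the tests were chosen with earlier results of these data known. Named were the targeted genes, 3 genes the study names, the 6 largest differences per class (at least 1 CPM in the highest group, per-library effects of the 2 proteins without overlap), and per list the 4 largest called differences or, with none called, the 2 largest. *Lrp2*, *Gbp4*, *Zscan4d*, *Pramel6*, *Serpine2*, *Sdc4*, *Pik3r3*, *Cd4*, *Scd1*, *Tesc*, *Pnma2*, *Ddit3*, *Nupr1*, *Asns*, *Vldlr*, *Cebpb*, *Atf3*, *Atf4*, *Aldh18a1*, *Psat1*, *Pramel7*, *Duxf3* and the threshold neighbours were chosen after their values were seen. The BCLIP samples were not analysed here, and some genes are not reported here.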

Additional observations from a re-analysis of the deposited data

How the results depend on the processing

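No gene called here changed the sign of its difference in any alternative fit that tested it. The count of called differences, 103, was between 90 and 118 with other pseudocounts, a limit of 1 CPM, a filter over 20 libraries, no scaling, TMM scaling or only the 8 libraries, where the share of calls that were higher after CCDC174 loss was 17% in place of 25.2%, and 73 with edgeR. It was 39 with no filter, with 25 NRDE2-sided and 2 CCDC174-sided genes, 169 with DESeq2, with 14 opposite and 122 NRDE2-sided genes, and 542 with an adjusted p below 0.05 and no limit on the change. Only the 8 libraries left 4 CCDC174-sided genes, and 70 of the 103 genes were among the 94 called there, so like counts do not mean the same genes. Opposite genes were 34 with the other *Nrde2*-KO experiment and 13 when classes were set by effect size. With that experiment 88 of the 103 genes were tested, and 51 of the 147 called genes were shared. Leaving out each library gave 26 to 83 called differences, 556 to 718 *Nrde2*-KO and 122 to 236 *Ccdc174-dTAG* effects, 3 to 11 opposite, 17 to 60 NRDE2-sided and 1 to 4 CCDC174-sided genes. The cause was not tested, except that no filter adds genes to the adjustment and a library left out removes replication. *Ccdc174-dTAG* effects fell to 122 without *Ccdc174-dTAG* replicate 2. With the replicate number as a block, 252 differences were called, with 28 opposite, 164 NRDE2-sided and 15 CCDC174-sided genes. The labels do not say what a replicate number marks. Of 76 genes named by rule, 32 were called and 6 in every alternative (*Anxa8*, *Dhcr7*, *Fam198b*, *Nrde2*, *Pck2* and *Trib3*). Signs turned in genes that were not called, where *Col1a1* ran from -0.758 to 0.0145 without *Ccdc174* WT replicates 2 and 1, *Hist1h2al* from -0.0828 to 2.99 without *Ccdc174-dTAG* replicates 1 and 2, *Cdk2* from -0.211 to 0.00652 without *Nrde2*-KO replicates 1 and 2, and *Dnmt1* was at -0.0376 with the other *Nrde2*-KO experiment. A library left out leaves a group with 1, assumed to vary like the others. Depth limits genes near 0.5 CPM.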

Other observations

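Replication-dependent histone genes had a high median difference without a call. Of 59 tested, 57 lay above 0, against 7774 of 14436 genes, with a median of 0.82. None was called in limma, and 23 had an unadjusted p below 0.05, against 2594 of 14436 genes. The per-library medians of the *Ccdc174-dTAG* effect were 0.75 in replicate 1 and -0.27 in replicate 2, and those of the *Nrde2*-KO effect -0.12 and -0.95. Without *Ccdc174-dTAG* replicate 1 the median difference was 0.29, and without replicate 2 it was 1.26 with 2 genes called. Without *Nrde2*-KO replicate 1, 1 gene was called. *Hist1h2bc*, chosen after its values were seen, was at 40.8 and 30.6 normalized CPM in *Ccdc174* WT, 97.6 and 28.0 in *Ccdc174-dTAG*, 77.4 and 125 in *Nrde2* WT and 105 and 32.6 in *Nrde2*-KO.

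Neighbouring genes were called in 8 stretches of the genome with less than 1 Mb between neighbours. *Adm2*, up on the CCDC174 side, and *Mapk8ip2*, down on the NRDE2 side, lie together on chr15:89322720-89464468, and *Pck2* and *Ripk3* on chr14:55540266-55788865. *Ripk3*, a kinase of necroptosis, was at 12.5 and 10.2 in *Ccdc174* WT, 11.5 and 8.95 in *Ccdc174-dTAG*, 18.5 and 16.4 in *Nrde2* WT and 35.9 and 33.4 in *Nrde2*-KO, opposite in direction to *Pck2*.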
